A study of Mus musculus with 18 samples.

Results

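Mouse dorsal root ganglion (DRG) neuron cultures heterozygous for the tm1a allele of Dynlrb1 (HET) were compared with wild-type (WT) cultures after 48 h in culture, with 3 cultures of each genotype. These 6 cultures were chosen by genotype and time from the 18 samples of the series, the others being 12 cultures collected at 12 and 24 h. The labels give no age, strain or treatment, and both groups share every other label: DRG neurons and total RNA. They name no promoter or Cre driver, so the allele is described here as present in the whole animal, and each HET cell keeps 1 WT copy of the gene. The design text calls the cultures biological repeats without saying whether they came from separate animals. The main fit pairs same-numbered cultures, not known to be separate animals. Its limma p-values therefore measure how the HET minus WT difference varied between pairs of a time point, pooled over all 18 samples and partly over genes. Shifts shared by both cultures of a pair are left out of that spread. Values are the authors' normalized counts, always listed for cultures 1, 2 and 3 in that order, and same-numbered cultures were compared as pairs.

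Cytoplasmic dynein is the motor that walks along axonal microtubules in the direction of the soma, and Dynlrb1 encodes its roadblock light chain. In sensory neurons dynein brings signals of growth factors and of injury from the axon to the nucleus. DRG neurons are a mixture of classes, among them nociceptors that sense pain, itch neurons, cold-sensing neurons and large touch and position-sensing neurons. Plating cuts their axons, and in culture they turn on a set of regeneration-associated genes while many genes typical of the uninjured class decline.

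The neuronal label was checked on 15 pan-neuronal markers, and all 15 had a mean above 1 FPKM (fragments per kilobase and library size, a level corrected for gene length). Their summed FPKM ran from 6439 to 7009 in WT and from 6545 to 6942 in HET. Markers of Schwann cells, satellite glia, fibroblasts, endothelial cells and macrophages were also present, so the cultures held other cells too. In bulk RNA, fewer cells of a type and less RNA per cell cannot be told apart. The totals of the normalized counts were nearly equal by construction (41509705 to 41509874 over the series), so sequencing depth is unknown and no counting interval is given. HET culture 3 stood apart: across genes, its log2 values correlated with the mean profiles of the 12 and 24 h groups at 0.988 to 0.993, and with the WT mean at 48 h at 0.973. For the other 5 cultures those values were 0.947 to 0.988 and 0.991 to 0.996. In all 3 pairs the HET culture correlated more with every 12 and 24 h mean than its WT partner did. With the WT mean at 12 h, the values were 0.962, 0.954 and 0.975 in WT and 0.975, 0.982 and 0.988 in HET. The WT mean at 48 h includes the WT cultures compared with it. Many results are therefore also given without replicate 3. Xist, the transcript of the inactive X chromosome, was 17285, 10302 and 19.04 in WT and 11982, 2450.4 and 4680.5 in HET (limma adjusted p = 0.408), so WT culture 3 differed from the other 5 in this marker of female cells.

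Dynlrb1 (ENSMUSG00000047459, mm10 chr2:155236533-155250277, plus strand) had normalized counts of 5995, 5677 and 6372 in WT and 3314, 3482 and 3243 in HET. The groups did not overlap, and all 3 pairs fell. The HET level was 55.7% of WT, a log2 difference of -0.84 (SE 0.12; limma adjusted p = 0.00208 over all genes tested, and 0.0501 without the pairing). A two-sided exact permutation test gave p = 0.1, the smallest that 3 cultures against 3 allow.

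At 48 h, 2120 of 17198 genes were called between HET and WT at a limma adjusted p under 0.05 with the pairing, 12.3% of genes tested. Of these, 866 were higher in HET (5.04%) and 1254 lower (7.29%). With quantile normalization the split was 1123 higher and 1040 lower, so 51.9% in place of 40.8% of called genes were higher. The calls rest on the pairing: without it limma called 0 genes, although 413 had an adjusted p under 0.06 and 3782 an unadjusted p under 0.05. Without replicate 3 the paired fit called 659 genes (3.83%), 303 higher (1.76%) and 356 lower (2.07%), and 601 of them were among the 2120. Without replicate 2 it called 372, and without replicate 1 it called 1768. Counted without any test, 1646 genes (9.57%) had all HET cultures above all WT cultures and 2478 (14.4%) had all HET below all WT.

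Replicate 3 moved in the same direction as the other pairs for most of these genes. Of the 659 genes called from replicates 1 and 2 alone, 613 (93.0%) had the same sign in replicate 3: 275 of 303 higher and 338 of 356 lower. Over all genes, 44.0% were positive in replicate 3. The genes called higher had a median log2 difference of 0.68 in replicate 3, and those called lower -0.76. The same check of replicate 2 gave 371 of 372 genes, and of replicate 1 gave 1655 of 1768.

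**Figure D1:**
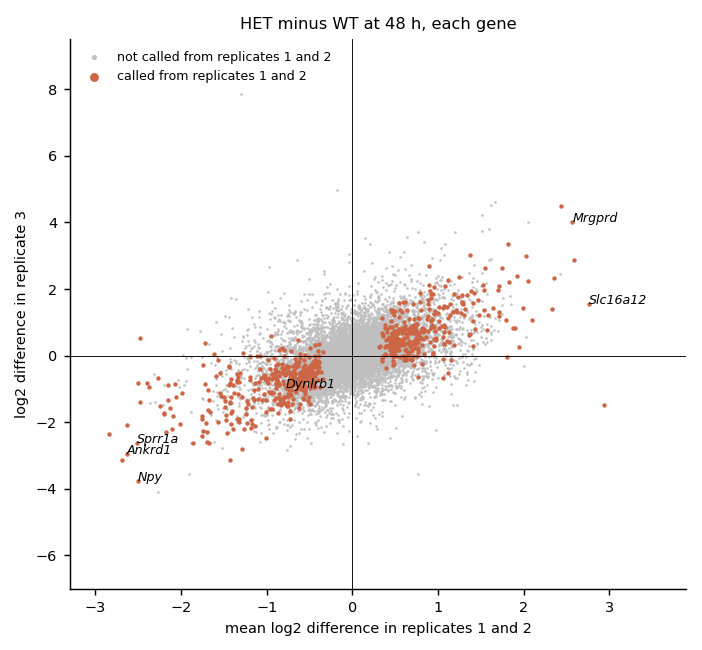
Log2 difference (HET minus WT at 48 h) of each gene in replicate 3 (vertical axis) against the mean of replicates 1 and 2 (horizontal axis), with the 659 genes called from replicates 1 and 2 in orange and all other genes in grey. Most orange points lie at the lower left and upper right, with the same sign on both axes (613 of 659), and the grey point near 8 on the vertical axis is Xist.

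Of 15 measured dynein chains and regulators other than Dynlrb1, 1 was called higher and 0 lower (6.67% higher beside 5.04% of all genes, and 0 called without replicate 3), with a median log2 difference of 0.05 beside -0.03 over all 17198 genes. The called gene was Dync1i1, an intermediate chain enriched in neurons, at 4751, 4438 and 5544 in WT and 6140.4, 6076 and 7692 in HET (log2 difference 0.43, limma adjusted p = 0.0226, and 0.118 without replicate 3). Dynlrb2, the paralog of Dynlrb1, was low, with 17.4, 9.24 and 9.48 in WT and 16.8, 13.2 and 9.97 in HET. The heavy chain Dync1h1 was 125881, 117738 and 126972 in WT and 109170.0, 124874 and 89964 in HET, with overlapping groups (limma adjusted p = 0.295). Among 12 dynactin subunits 1 rose (8.33% beside 5.04% of all genes). It was Dctn1, the large subunit that binds microtubules, which went from 16767, 14994 and 17452 to 20923, 18461 and 22303 (limma adjusted p = 0.0109). Dctn1 was not called without replicate 3. Of 16 cargo adaptors, 1 rose and 2 fell (6.25% and 12.5%, beside 5.04% and 7.29% of all genes). Trak1, which links mitochondria to motors, rose by a log2 difference of 0.50 (limma adjusted p = 0.00278). Bicd2, an adaptor that activates dynein, fell by 0.46 (limma adjusted p = 0.00641), and so did Rilp, an adaptor of late endosomes, by 0.85 (limma adjusted p = 0.0105). The Rilp groups overlapped, and its call was lost without replicate 3 (limma adjusted p = 0.0629).

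The largest rises are given for 5 genes in full. The rule that named genes of largest change required a call, 1 direction in all 3 pairs and no overlap of the groups. Mrgprd, a receptor that marks non-peptidergic nociceptors of the skin, had 198, 73.1 and 381 in WT and 618, 839 and 6163 in HET. All HET cultures exceeded all WT cultures, which the rule required, but HET culture 3 was far above the other HET cultures. Its log2 difference was 3.05 (SE 0.37, limma adjusted p = 0.00105) and 2.57 without replicate 3 (limma adjusted p = 0.0110). Slc16a12, of the monocarboxylate transporter family, was 209, 60.2 and 292 in WT and 1094, 544 and 853 in HET. Here HET culture 1 was the highest, and the log2 difference of 2.36 became 2.77 without replicate 3 (limma adjusted p = 0.00525). Ctxn3, of the cortexin family of membrane proteins, was 471, 215 and 596 in WT and 1369.5, 834 and 3708 in HET (log2 difference 2.04, limma adjusted p = 3.23e-04). Trpc6, a calcium-permeable cation channel, was 141, 64.8 and 147 in WT and 483, 331 and 706 in HET, with a log2 difference of 2.12. Nnat, which encodes the small membrane protein neuronatin, was 45.6, 32.5 and 107 in WT and 128, 149 and 1095 in HET, with HET culture 3 several-fold above the rest. The 15 genes named for the largest rises had log2 differences from 1.90 to 3.12, and the other 10 were Ms4a3, Klk5, A3galt2, Slc4a1, Wfdc2, Hal, 1700011I03Rik, Pde4c, Sst and Serpina11. The WT means of Ms4a3, Klk5, Slc4a1, Wfdc2, 1700011I03Rik, Hal and Sst were 3.09, 2.74, 6.79, 7.30, 9.96, 18.8 and 19.9. These genes met the minimum mean of 20 over the 6 cultures only through HET. For Ms4a3, Klk5 and Slc4a1, HET culture 3 (127, 103 and 190) was far above the other cultures. Klk5, A3galt2, Slc4a1 and 1700011I03Rik were not called without replicate 3 (limma adjusted p = 0.107, 0.0537, 0.0667 and 0.0990).

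The largest falls are likewise given for 5 genes in full. Npy, the peptide neuropeptide Y that sensory neurons make after axotomy, was 887, 1297 and 415 in WT and 229, 155 and 29.5 in HET, a log2 difference of -2.93 (SE 0.45, limma adjusted p = 0.00278). Ankrd1, an ankyrin-repeat cofactor of transcription, was 184, 511 and 89.9 in WT and 38.0, 62.0 and 10.7 in HET, a log2 difference of -2.74 (SE 0.27, limma adjusted p = 5.53e-04). In both genes WT culture 2 was the highest and HET culture 3 the lowest. That no HET culture reached the WT range was required by the rule that named these genes. Ucn, the stress peptide urocortin, was 661, 1298 and 597 in WT and 262, 233 and 49.6 in HET (log2 difference -2.46), and it was not called without replicate 3 (limma adjusted p = 0.0631). Adra2a, the alpha-2A adrenergic receptor, was 1203, 3558 and 1184 in WT and 423, 548 and 254 in HET, a log2 difference of -2.14. Fezf2, a zinc-finger transcription factor, was 391, 1174 and 219 in WT and 104, 113 and 50.5 in HET, a log2 difference of -2.45. The 15 genes named for the largest falls ran from -2.93 to -2.05, and the other 10 were Oas1e, Ido2, Sprr1a, 4933402N22Rik, Cldn4, 1700042G15Rik, Gm19424, 4930548G14Rik, 5930412G12Rik and Jsrp1. Ido2, 4933402N22Rik and 4930548G14Rik had HET means of 14.2, 7.47 and 8.34 and met the minimum mean of 20 only through WT. Oas1e belongs to a multigene family, so its separate value is uncertain. Without replicate 3, Ucn, Cldn4 and 4930548G14Rik were not called (limma adjusted p = 0.0631, 0.238 and 0.118).

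**Figure D2:**
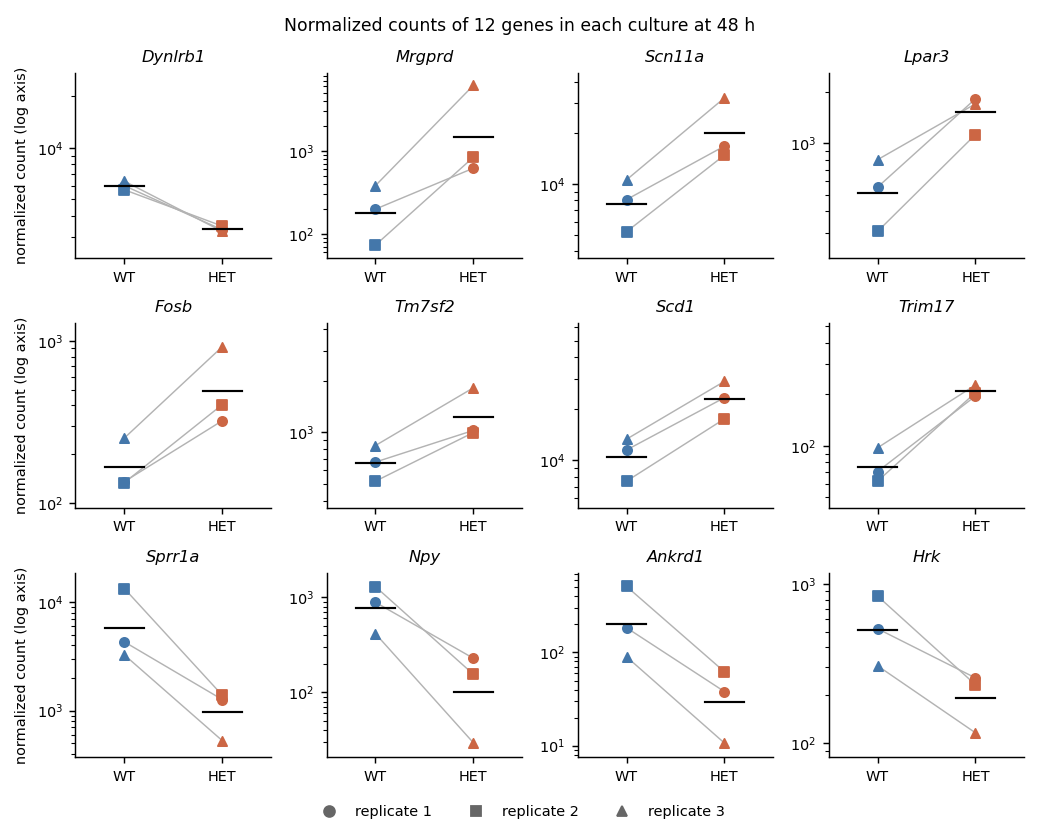
Normalized counts (log axis) of 12 genes in the WT (blue) and HET (orange) cultures at 48 h, with a marker shape for each replicate number, a grey line for each pair and a black bar for the geometric mean of 3 cultures. For every gene shown all 3 pairs move the same way and the groups do not overlap. For Mrgprd, Sprr1a, Npy and Ankrd1 the rule that named them as largest changes required this. HET replicate 3 (triangle) is the highest HET culture for Mrgprd, Scn11a, Fosb, Tm7sf2, Scd1 and Trim17. It is the lowest HET culture for Dynlrb1, Sprr1a, Npy, Ankrd1 and Hrk, whereas for Lpar3 HET replicate 1 is the highest.

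Markers of non-peptidergic nociceptors, small neurons that end in the skin, were higher in HET. Of 15 markers, 12 rose, 0 fell and 3 did not pass, or 80.0% called higher beside 5.04% of all genes. The median log2 difference was 1.56, with 1.15, 1.89 and 1.55 in pairs 1, 2 and 3. Without replicate 3, 10 of 15 were called higher, with a median of 1.59. Without replicate 2, 7 were called. Scn11a, which encodes the sodium channel Nav1.9, was 8091, 5223 and 10588 in WT and 16764, 14839 and 32308 in HET, a log2 difference of 1.39 (SE 0.12, limma adjusted p = 3.23e-04). Lpar3, a receptor for lysophosphatidic acid, was 552, 304 and 799 in WT and 1813, 1121 and 1694 in HET, a log2 difference of 1.56. WT culture 2 was the lowest for both genes, and no WT culture reached the HET range. Prkcq, a protein kinase C, was 977, 474 and 1092 in WT and 2835, 1755 and 2718 in HET (limma adjusted p = 0.00130, and 0.0105 without replicate 3). The 3 that did not pass were Mrgprx1 (111, 47.3 and 120.3 in WT, 335, 236 and 144 in HET, limma adjusted p = 0.0555), Gna14 (limma adjusted p = 0.137) and the ATP receptor P2rx3. P2rx3 was 18480.0, 20889 and 19302 in WT and 20135, 18650.1 and 21158 in HET, a log2 difference of 0.03 (limma adjusted p = 0.908). The Mrgpr genes are a multigene family, so their separate values are uncertain; 5 of the 15 markers belong to it. Summed over the markers, FPKM was 217, 207 and 256 in WT and 331, 293 and 507 in HET.

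Other classes of small neurons changed in part. Of 14 peptidergic nociceptor markers, 7 rose and 3 fell (50% and 21.4%, beside 5.04% and 7.29% of all genes). Without replicate 3 the counts were 3 and 0. Trpa1, the irritant channel, was 1148, 878 and 1657 in WT and 1586, 2166 and 5234 in HET (log2 difference 1.14, limma adjusted p = 0.00217). The groups touched, since HET culture 1 was below WT culture 3, but each pair rose. Trpv1, the heat and capsaicin channel, was 4143, 3257 and 4852 in WT and 6185, 5424 and 6441 in HET (log2 difference 0.57, limma adjusted p = 0.0168). Gfra3, the artemin co-receptor of the same class, went the other way, from 7338, 9833 and 8669 to 6539.7, 7284 and 5119 (log2 difference -0.45, limma adjusted p = 0.0146). Of 8 itch neuron markers 3 rose, Sst, Cysltr2 and Il31ra (37.5% higher beside 5.04% of all genes). Without replicate 3 only Sst was called. Il31ra, the receptor of the itch cytokine interleukin 31, was 67.0, 65.5 and 101 in WT and 75.9, 151 and 673 in HET, with HET culture 3 far above the rest. The cold channel Trpm8 was 379, 275 and 461 in WT and 574, 404 and 581 in HET (log2 difference 0.49, limma adjusted p = 0.0327). Of 5 cold-sensing markers 2 rose (40% beside 5.04% of all genes), and 1 without replicate 3. Of 7 markers of C-fibre low-threshold mechanoreceptors, the touch neurons without myelin, 1 rose, Gfra2 (14.3% beside 5.04% of all genes). The pairs disagreed, with medians of 0.28, 0.73 and -0.92. Th, which marks that class, was 4695, 3819.6 and 5870.0 in WT and 5683, 6345 and 3104 in HET (limma adjusted p = 0.957). Of 18 markers of myelinated touch and position neurons, 1 rose and 3 fell (5.56% and 16.7%, beside 5.04% and 7.29% of all genes). Of these markers 0 were called without replicate 3.

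**Figure D3:**
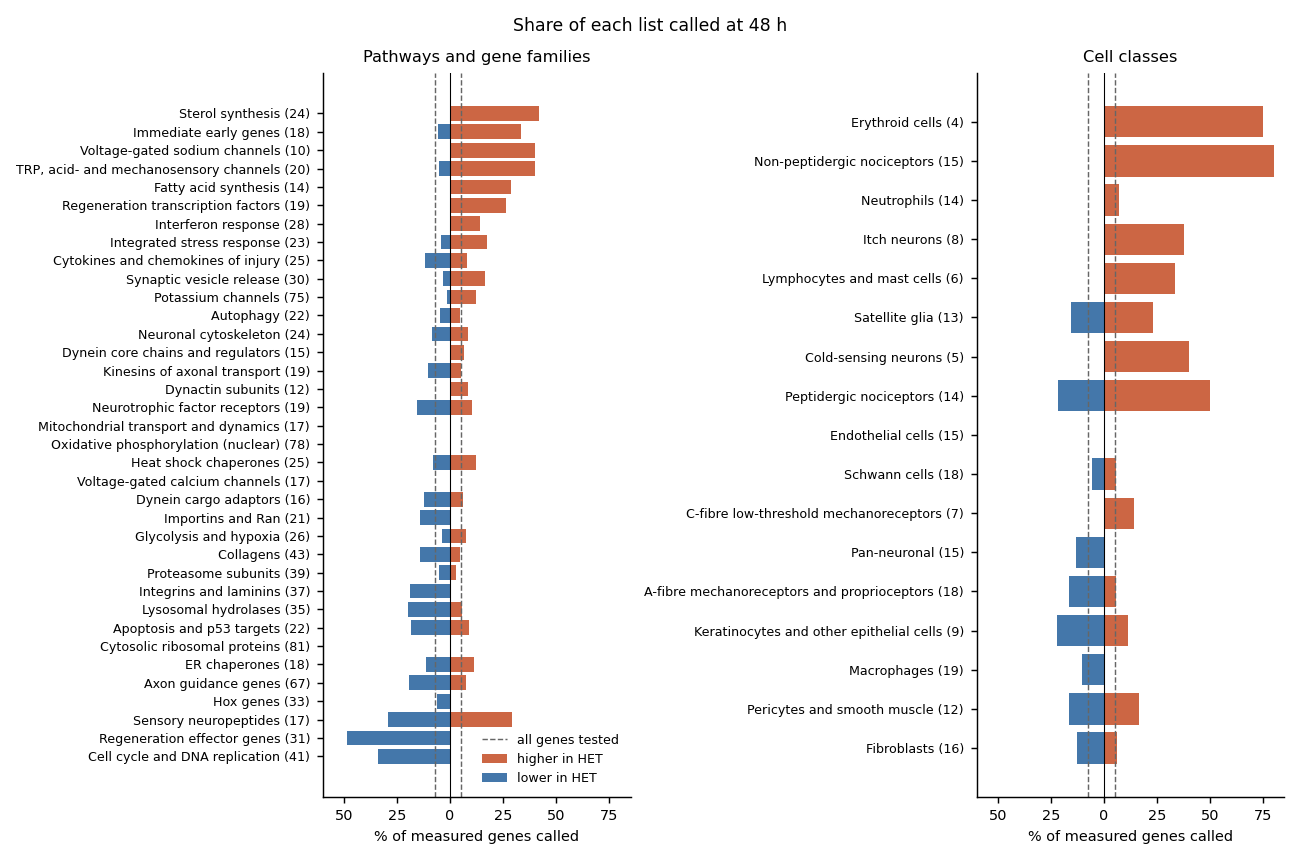
Share of the measured genes of each list called higher (orange, to the right) or lower (blue, to the left) in HET at 48 h, with the number measured in brackets and dashed lines at the shares over all genes tested (5.04% and 7.29%). Lists are in the order of their median difference: non-peptidergic nociceptors reach 80.0% higher with none lower, and regeneration effector genes 48.4% lower with none higher.

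Channels that set the excitability of small neurons were among the genes that rose. Of 10 voltage-gated sodium channel genes, 4 rose and 0 fell (40% higher beside 5.04% of all genes). Their median log2 difference was 0.31, and 3 were called without replicate 3. Scn10a, which encodes Nav1.8 of nociceptors, was 21824, 18016 and 28673 in WT and 38117, 32972 and 49209 in HET, a log2 difference of 0.82 (SE 0.10, limma adjusted p = 0.00127). The groups did not overlap. The beta subunits Scn2b and Scn3b rose by 0.82 and 0.36, whereas Scn9a, Nav1.7, had 34096, 27994 and 32927 in WT and 34929, 36889 and 42194 in HET and did not pass (limma adjusted p = 0.0892). Of 75 potassium channel genes, 9 rose and 1 fell (12.0% and 1.33%, beside 5.04% and 7.29% of all genes), and 5 and 0 without replicate 3. Kcnt1, a sodium-activated potassium channel, was 1991, 1733 and 2816 in WT and 3847, 3439.7 and 7193 in HET, a log2 difference of 1.10 (limma adjusted p = 3.23e-04). Kcnd1, a transient A-type channel, was 1752, 1173 and 1578 in WT and 2628, 1955 and 2535 in HET (log2 difference 0.67), and Kcnj4, an inward rectifier, was the gene that fell (log2 difference -0.98). Of 20 TRP, acid-sensing and mechanosensory channels, 8 rose and 1 fell (40% and 5%, beside 5.04% and 7.29% of all genes). Without replicate 3 the counts were 6 and 0. Trpm3, Trpc5 and Trpv2 were among those that rose, with log2 differences of 0.74, 0.89 and 0.30. Piezo2, the touch channel, was 16861, 13532 and 18318 in WT and 20344, 21316 and 19198 in HET and did not pass (limma adjusted p = 0.124). None of 17 voltage-gated calcium channel genes was called in the paired fit (0 of 17, and 1 higher without replicate 3, with 5 at an unadjusted p under 0.05 without the pairing). The lowest p was that of Cacnb4, a beta subunit, at 4216, 3479 and 4419 in WT and 5126, 5249.9 and 5260.2 in HET (limma adjusted p = 0.0556).

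Neuropeptide genes went in both directions, with 5 of 17 called higher and 5 lower (29.4% each, beside 5.04% and 7.29% of all genes). Tac1, the precursor of substance P, was 2841, 1914 and 3722 in WT and 3968, 4648 and 11216 in HET (log2 difference 1.12, limma adjusted p = 0.00515). Calcb, which encodes beta-CGRP, was 2215, 1904 and 3714 in WT and 3658, 4241 and 13294 in HET (log2 difference 1.24). Those genes with Calca, Nmb and Sst were the 5 that rose, and HET culture 3 was the highest culture for each. The 5 that fell were Npy, Nts, Adcyap1, Cartpt and Cck. Nts, the precursor of neurotensin, was 8162, 13236 and 7265 in WT and 5001, 6671 and 2947 in HET (limma adjusted p = 0.00143). Adcyap1, which encodes the injury-induced peptide PACAP, was 28238, 32949.9 and 31029 in WT and 17937, 19182 and 14618 in HET, a log2 difference of -0.84. Galanin (Gal), also known from injured neurons, was 1035, 1217 and 1394 in WT and 873, 1044 and 972 in HET and did not pass (limma adjusted p = 0.449). Without replicate 3, 3 rose and 3 fell.

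Regeneration effector genes are those that injured sensory neurons turn on as axons regrow. Of 31 measured, 15 fell and 0 rose, or 48.4% called lower beside 7.29% of all genes. The median log2 difference was -0.49, with -0.38, -0.60 and -0.64 in pairs 1, 2 and 3. The counts of genes called lower were 13, 9 and 10 without replicates 1, 2 and 3. Sprr1a, a small proline-rich protein of growing axons, was 4306, 13347 and 3263 in WT and 1265, 1386 and 528 in HET, a log2 difference of -2.55 (SE 0.46, limma adjusted p = 0.00524). WT culture 2 was far above the other WT cultures. No HET culture reached the lowest WT value, which the rule for the largest falls required. Ecel1, a membrane endopeptidase induced by nerve injury, was 7959.9, 24956 and 9271 in WT and 3643, 4793 and 1726 in HET, a log2 difference of -1.98 (limma adjusted p = 0.00187). Itga7, the laminin-binding integrin alpha 7, was 34146, 67524 and 35771 in WT and 18992, 23843 and 12349 in HET, a log2 difference of -1.29 (limma adjusted p = 0.00151). Both showed the same order, with WT culture 2 highest and HET culture 3 lowest. Gap43, the growth cone protein, fell less, from 16646, 19150.3 and 20340.1 to 13860.3, 16089 and 13080.1 (log2 difference -0.38, limma adjusted p = 0.0139, and 0.111 without replicate 3). Also called lower were Nts, Cckbr, Serpinb1a, Lgals1, Hspb1, Adcyap1, Anxa1, Fst and Lif, with Npy and Ankrd1 above.

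The promoter of Sprr1a is shown because the gene fell and because AP-1, the dimer of Jun and Fos proteins, is a known regulator of injury genes. The stretch is the 150 bases before the RefSeq start (GRCm38.p6, chr3:92485882-92486031, minus strand), with matches to TGANTCA in capitals, beginning 146 and 116 bases before the start.
Sprr1a: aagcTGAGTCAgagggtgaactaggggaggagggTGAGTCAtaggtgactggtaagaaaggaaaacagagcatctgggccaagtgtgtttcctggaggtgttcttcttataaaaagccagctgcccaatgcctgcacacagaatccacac
TGANTCA occurred in 6.75% of 32851 RefSeq promoters in their 250 bases before the start, searched on both strands. It occurred in 5 of the 23 regeneration effector genes that the promoter table holds, namely Il6, Lif, Nts, Plaur and Sprr1a. A gene was counted if any of its RefSeq starts had a match, whereas the share is over single promoters. These are unlike measures, here and for the other promoter counts below. A match describes the letters and shows no binding.

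Transcription factors of the same injury programme were called higher or not at all. Of 19 measured, 5 rose and 0 fell (26.3% higher beside 5.04% of all genes), and 17 had a positive difference. Arid5a, an RNA- and DNA-binding protein, was 2208, 1894 and 2984 in WT and 3158, 3209 and 7777 in HET (log2 difference 0.89, limma adjusted p = 0.00229), and it was the 1 member called without replicate 3. Cebpd, a C/EBP factor, was 398, 414 and 423 in WT and 583, 823 and 1111 in HET (log2 difference 0.98, limma adjusted p = 0.00668). Stat3, which dynein carries from injured axons to the nucleus, was 21392, 21296 and 25379.5 in WT and 26214, 26337 and 30564 in HET, a log2 difference of 0.29 (limma adjusted p = 0.0174, and 0.0658 without replicate 3). Smad1 and Nfil3 rose by 0.32 and 0.55. Jun was 13183, 13493 and 14908 in WT and 14509.5, 14264 and 18534 in HET and did not pass (limma adjusted p = 0.186).

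Immediate early genes, which neurons switch on within minutes of activity or growth factor signals, were called in both directions. Of 18 measured, 6 rose and 1 fell (33.3% and 5.56%, beside 5.04% and 7.29% of all genes), with 2 and 0 called without replicate 3. The differences had a median of 0.39 and pair medians of 0.31, 0.39 and 0.50. Fosb was 136, 133 and 252 in WT and 322, 405 and 922 in HET, a log2 difference of 1.57 (SE 0.16, limma adjusted p = 6.86e-04). Fos was 617, 559.6 and 1033 in WT and 1106, 1831 and 3619.9 in HET, a log2 difference of 1.45 (limma adjusted p = 0.00175). All 3 pairs rose for both genes, the groups did not overlap, and these 2 were the members called without replicate 3. Nr4a1, Nr4a2, Egr4 and Egr1 rose by 0.98, 0.50, 0.97 and 0.82. Klf10, a TGF-beta-inducible factor, fell from 5079, 7064 and 5665 to 3893, 4869 and 3596 (log2 difference -0.53, limma adjusted p = 0.00928). Arc had 457, 435 and 376 in WT and 367, 375 and 1059.6 in HET and did not pass (limma adjusted p = 0.519).

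The promoter of Ucn, one of the genes of largest fall, holds the full cAMP response element TGACGTCA, the site of CREB proteins that also act at immediate early genes. The stretch is 150 bases of GRCm38.p6 (chr5:31138896-31139045, minus strand) before the RefSeq start, with the element in capitals, beginning 44 bases before the start.
Ucn: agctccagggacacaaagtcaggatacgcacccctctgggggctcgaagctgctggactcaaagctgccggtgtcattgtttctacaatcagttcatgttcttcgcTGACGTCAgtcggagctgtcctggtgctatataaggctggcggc
TGACGTCA occurred in 1.55% of the 32851 promoters and in 2 of 13 immediate early genes in the table, Btg2 and Dusp1. Ucn fell while Fos and Fosb rose, but Fos and Fosb are not among the genes with a match. The part of this element in these changes was not tested.

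Genes of lipid synthesis were called in 1 direction. Of 24 sterol synthesis genes, 10 rose and 0 fell, or 41.7% beside 5.04% of all genes, and 23 had a positive difference. The median log2 difference was 0.43, with 0.50, 0.33 and 0.42 in pairs 1, 2 and 3, so replicate 3 was not the largest. The numbers called without replicates 1, 2 and 3 were 7, 3 and 5. Tm7sf2, a sterol reductase, was 671, 519 and 838 in WT and 1027, 998 and 1822 in HET, a log2 difference of 0.89 (SE 0.14, limma adjusted p = 0.00284). Fdft1, squalene synthase, was 5573, 4167 and 5812 in WT and 8058, 5999.6 and 8275 in HET, a log2 difference of 0.52. For both enzymes no WT culture reached the HET range. Nsdhl, Fdps, Mvk, Hmgcs1, Pmvk, Msmo1 and Idi1 were also among those that rose, by 0.71, 0.71, 0.61, 0.45, 0.48, 0.45 and 0.50.

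Of 14 fatty acid synthesis genes, 4 rose and 0 fell (28.6% higher beside 5.04% of all genes). Scd1, the desaturase that makes oleate, was 11518, 7569 and 13320.5 in WT and 23274, 17509 and 28992 in HET, a log2 difference of 1.12 (SE 0.09, limma adjusted p = 3.23e-04, and 0.00381 without replicate 3). All HET cultures were above all WT cultures. Elovl6, a fatty acid elongase, was 2469.5, 1831 and 2387 in WT and 4111, 3166 and 3851 in HET, a log2 difference of 0.74. Fads2 and Acly rose by 0.52 and 0.27. Fasn, fatty acid synthase, was 15664, 14396 and 16158 in WT and 19525, 16335 and 17306 in HET; the groups did not overlap but the gene did not pass (limma adjusted p = 0.111).

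Hmgcs1, the cytosolic HMG-CoA synthase that feeds the sterol pathway, was 17772, 13104 and 16301 in WT and 24636, 17552 and 22557 in HET. Its promoter is shown for the sterol regulatory element TCACNCCAC, the site of the SREBP factors, in capitals (GRCm38.p6, chr13:119690201-119690350, plus strand, beginning 137 bases before the RefSeq start).
Hmgcs1: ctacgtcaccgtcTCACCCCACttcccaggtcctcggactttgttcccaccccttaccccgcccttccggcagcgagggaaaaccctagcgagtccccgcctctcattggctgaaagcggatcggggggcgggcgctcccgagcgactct
TCACNCCAC occurred in 1.05% of the 32851 promoters and, of the 16 sterol synthesis genes in the table, in Hmgcs1 only. Srebf2, which encodes SREBP-2, was 4011, 3047 and 3643 in WT and 5520.3, 3897 and 3786 in HET and did not pass (limma adjusted p = 0.0917).

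Of 25 heat shock chaperones measured, 3 rose and 2 fell (12.0% and 8%, beside 5.04% and 7.29% of all genes), and 2 and 1 without replicate 3. Hspa1b, an inducible Hsp70, was 517, 417 and 485 in WT and 775, 993 and 1743 in HET, a log2 difference of 1.22 (limma adjusted p = 0.00250, and 0.0180 without replicate 3). Hspa1a, its near-identical copy, was 313, 247 and 318 in WT and 479, 610.4 and 1316 in HET, a log2 difference of 1.32 (limma adjusted p = 0.00338). How reads were divided between these copies is not given in the sources used here, so their separate values are uncertain. Dnaja1, an Hsp40 partner, rose by 0.29. The small heat shock protein genes went the other way: Hspb1 was 9942, 11246 and 9405 in WT and 6868, 6966 and 5750.1 in HET (log2 difference -0.64, limma adjusted p = 0.00517), and Cryab fell by 0.75 (limma adjusted p = 0.00561). Hsp90aa1 and Hspa8, which fold proteins in unstressed cells too, did not pass (limma adjusted p = 0.258 and 0.706).

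The promoters of Hspa1a, Hspa1b and Hspb1 are shown together because all contain the paired heat shock unit GAANNTTC, here in capitals, and the genes moved in opposite directions. Each line is the 150 bases before the RefSeq start in GRCm38.p6: Hspa1a at chr17:34972157-34972306 (minus strand), Hspa1b at chr17:34959239-34959388 (minus strand) and Hspb1 at chr5:135887769-135887918 (plus strand).
Hspa1a: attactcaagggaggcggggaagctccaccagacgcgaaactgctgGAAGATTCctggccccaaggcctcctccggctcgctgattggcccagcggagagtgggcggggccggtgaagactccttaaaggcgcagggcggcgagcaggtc
Hspa1b: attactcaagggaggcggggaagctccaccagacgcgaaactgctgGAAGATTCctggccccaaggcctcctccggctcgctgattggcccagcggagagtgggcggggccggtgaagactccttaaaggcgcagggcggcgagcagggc
Hspb1: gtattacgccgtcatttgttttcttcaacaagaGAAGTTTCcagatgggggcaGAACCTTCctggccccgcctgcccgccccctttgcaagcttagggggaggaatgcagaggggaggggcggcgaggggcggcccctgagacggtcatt
The Hspa1a and Hspa1b stretches were identical at 149 of 150 bases, and in both the match begins 104 bases before the start. Hspb1 has matches beginning 117 and 97 bases before the start. GAANNTTC occurred in 6.69% of the 32851 promoters and in 7 of the 19 chaperone genes in the table (Dnaja1, Fkbp4, Hspa1a, Hspa1b, Hspb1, Hspd1 and Hspe1). Of those 7, Hspa1a, Hspa1b and Dnaja1 rose, Hspb1 fell, and the others did not pass.

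Of 22 apoptosis genes and p53 targets, 2 rose and 4 fell (9.09% and 18.2%, beside 5.04% and 7.29% of all genes), and 1 and 4 without replicate 3. Trim17, a ubiquitin ligase linked to neuronal apoptosis, was 70.7, 62.1 and 97.4 in WT and 195, 205 and 227 in HET, a log2 difference of 1.46 (SE 0.23, limma adjusted p = 0.00322, and 0.0183 without replicate 3). Its HET cultures lay close together, above all WT cultures. Bbc3, the BH3-only killer Puma, was 689, 837 and 957 in WT and 919.6, 978 and 2112 in HET and was not called without replicate 3 (limma adjusted p = 0.0278 with it and 0.230 without). Hrk, a BH3-only protein of neurons, fell from 525, 841 and 307 to 258, 233 and 116, a log2 difference of -1.42 (limma adjusted p = 0.00229). Pmaip1, the BH3-only protein Noxa, fell from 1554, 2998 and 1577 to 700.2, 849 and 535, a log2 difference of -1.51 (limma adjusted p = 0.00296). Phlda3 and Ccng1, both p53 targets, fell by 0.91 and 0.46. All 4 falls were also called without replicate 3, and none of their groups overlapped.

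For the integrated stress response, a programme of genes driven by ATF4, the positive median rested on replicate 3. Of 23 genes, 4 rose and 1 fell (17.4% and 4.35%, beside 5.04% and 7.29% of all genes), with pair medians of 0.01, -0.10 and 0.55. Ppp1r15a, which ends the response, was 4579, 4496 and 6793 in WT and 5753, 6658 and 17376 in HET (log2 difference 0.75), and Sesn2 was 1115, 983 and 1315 in WT and 1259.8, 1348 and 3452 in HET. HET culture 3 was far above the others for both genes. Ppp1r15a rose in all 3 pairs (log2 differences 0.33, 0.57 and 1.35). It was still called without replicate 3 (limma adjusted p = 0.0399), whereas Sesn2 was not (0.146). Atf4 itself was 16596, 16413 and 18698 in WT and 17922, 18264 and 27351 in HET and did not pass (limma adjusted p = 0.0826). Without replicate 3, the median of the list was -0.10, and 1 rose and 1 fell. Without replicate 2, 1 rose and 0 fell. Among 18 ER chaperones and genes of the unfolded protein response, 2 rose and 2 fell (11.1% each, beside 5.04% and 7.29% of all genes). Without replicate 3 the counts were 1 and 0. Herpud1 rose by 0.77 (limma adjusted p = 0.00669) and Calr, the chaperone calreticulin, fell by 0.42 (limma adjusted p = 0.0317).

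Genes that shape axons were called in both directions. Of 67 semaphorins, plexins, ephrins and other guidance genes, 5 rose and 13 fell (19.4% lower beside 7.29% of all genes), and 1 and 3 without replicate 3. Plxnc1, a semaphorin receptor, rose from 8180.0, 6800.5 and 10642 to 12766, 11843 and 22967 (log2 difference 0.85, limma adjusted p = 0.00164). Sema3c, a secreted semaphorin, fell from 5768, 7187 and 5077 to 4162, 4171 and 3560.1 (log2 difference -0.59, limma adjusted p = 0.00345). Unc5b, a netrin receptor, fell from 3617, 4745 and 3889.7 to 2808, 3062 and 1412 (log2 difference -0.82). Plxna4 was 22151, 25824 and 23918 in WT and 17196, 18336 and 5670.4 in HET, a fall that was not called without replicate 3 (limma adjusted p = 0.0361 with it and 0.279 without). Of 24 neuronal cytoskeleton genes, Mapt (tau) and Dpysl2 (CRMP2) rose by 0.44 and 0.39, and Map2 and Tuba1a fell by 0.51 and 0.37. These are 8.33% in each direction, close to the shares of all genes, and without replicate 3 the falls of Map2 and Tuba1a were not called (limma adjusted p = 0.0569 and 0.311), leaving 3 higher and 0 lower. Of 30 synaptic vesicle release genes, 5 rose and 1 fell (16.7% and 3.33%, beside 5.04% and 7.29% of all genes), and 3 and 0 without replicate 3. Syt1, the calcium sensor of release, was 8748, 6167 and 10298 in WT and 14845, 13341 and 10947 in HET (log2 difference 0.65, limma adjusted p = 0.0225). Of 19 kinesins of axonal transport, Kif5a rose by 0.30, and Kif21b and Kif1c fell by 0.85 and 0.51. Those shares, 5.26% higher and 10.5% lower, were near those of all genes, and Kif5a and Kif1c were not called without replicate 3 (limma adjusted p = 0.0569 and 0.141), nor any kinesin without replicate 2.

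Of 37 integrins and laminins, 7 fell and 0 rose (18.9% lower beside 7.29% of all genes), and without replicate 3 the count was 3. Itgb1, the partner of integrin alpha 7, was 54301, 62729.5 and 45513 in WT and 40260.2, 42990.2 and 26719.9 in HET, a log2 difference of -0.58 (limma adjusted p = 0.00284). Lamb3, a laminin chain, was 356, 922 and 452 in WT and 220.3, 184 and 137 in HET, a log2 difference of -1.57. Of 35 lysosomal genes, 7 fell and 2 rose (20% and 5.71%, beside 7.29% and 5.04% of all genes), but 0 fell and 1 rose without replicate 3. Ctsd, the protease cathepsin D, was 89478, 110619 and 94216 in WT and 77558, 82252 and 63548 in HET (log2 difference -0.40, limma adjusted p = 0.0190), and Arsb, arylsulfatase B, rose by 0.82. No macrophage marker is in the lysosomal list. Macrophage markers had a summed FPKM of 120.4, 167 and 111 in WT and 76.8, 105 and 76.7 in HET, lower in each HET culture than in every WT culture. Of 19 macrophage markers, 2 fell, C1qc and Cd68, and 0 rose (10.5% lower beside 7.29% of all genes). Neither was called without replicate 3 (limma adjusted p = 0.0613 and 0.0502). The part of macrophages in the lysosomal result was not tested.

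Of 41 cell cycle and DNA replication genes measured, 14 fell, 0 rose and 27 did not pass (34.1% lower beside 7.29% of all genes), with a median of -0.65 and pair medians of -0.25, -0.45 and -1.09, largest in replicate 3. Without replicates 1, 2 and 3 the numbers called lower were 14, 3 and 3. Ccne2, a cyclin of the entry into DNA synthesis, was 1442, 1873 and 1254 in WT and 885, 1011 and 529 in HET, a log2 difference of -0.95 (limma adjusted p = 0.00153). Top2a, which untangles DNA in dividing cells, was 1662, 1140.3 and 517 in WT and 871, 459.9 and 105 in HET, with overlapping groups (log2 difference -1.51, limma adjusted p = 0.0124). Its WT cultures spread widely, and within each pair HET was lower. Dividing cells in such cultures are usually glia and fibroblasts. Fibroblast markers had a summed FPKM of 208, 165 and 142 in WT and 197, 141 and 105 in HET, with 1 of 16 called higher and 2 lower (0 and 1 without replicate 3). Schwann cell markers had 531, 512 and 536 in WT and 517, 590.5 and 611 in HET, with 1 of 18 called higher and 1 lower (0 in either direction without replicate 3). Pericyte and smooth muscle markers had 236, 262 and 126 in WT and 136, 148 and 79.0 in HET, with 2 of 12 called in each direction (0 higher and 1 lower without replicate 3). The shares higher and lower were 6.25% and 12.5% for fibroblasts, and 5.56% each for Schwann cells. They were 16.7% each for pericytes and smooth muscle, beside 5.04% and 7.29% of all genes. The part of those cells in the cell cycle result was not tested.

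Blood cell markers moved with HET culture 3. The 14 neutrophil markers had a summed FPKM of 6.24, 4.91 and 6.83 in WT and 7.29, 10.1 and 83.5 in HET, and their pair medians were -0.06, 0.86 and 2.66. Only 4 of the 14 had a mean above 1 FPKM. A single neutrophil marker, Ltf, was called higher (7.14% of the 14, beside 5.04% of all genes). It was 1.25, 3.24 and 15.3 in WT and 10.6, 13.1 and 263 in HET (limma adjusted p = 0.0240, and 0.192 without replicate 3). The 4 measured erythroid markers had a summed FPKM of 0.152, 0.194 and 0.406 in WT and 0.289, 0.693 and 4.29 in HET. Of these, 3 were called higher with replicate 3 (75% beside 5.04% of all genes) and 0 without it. Ms4a3, a gene of myeloid precursors with the largest of the named rises, was 4.05, 0.580 and 4.64 in WT and 12.1, 16.8 and 127 in HET, and Slc4a1, the band 3 protein of red cells, was 4.81, 6.42 and 9.16 in WT and 9.27, 33.3 and 190.1 in HET. The adjusted values hold no 0, so no marker was at 0. The part of blood cells in these 2 genes was not tested. Satellite glia markers showed 3 of 13 called higher and 2 lower (23.1% and 15.4%, beside 5.04% and 7.29% of all genes). Those counts were 0 and 1 both without replicate 3 and without replicate 2. Endothelial markers showed 0 of 15 called (2 at an unadjusted p under 0.05 without the pairing). Pan-neuronal markers showed 0 higher and 2 lower of 15, Gap43 and Isl1 (13.3% lower beside 7.29% of all genes). Without replicate 3 the counts were 1 higher and 0 lower.

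**Figure D4:**
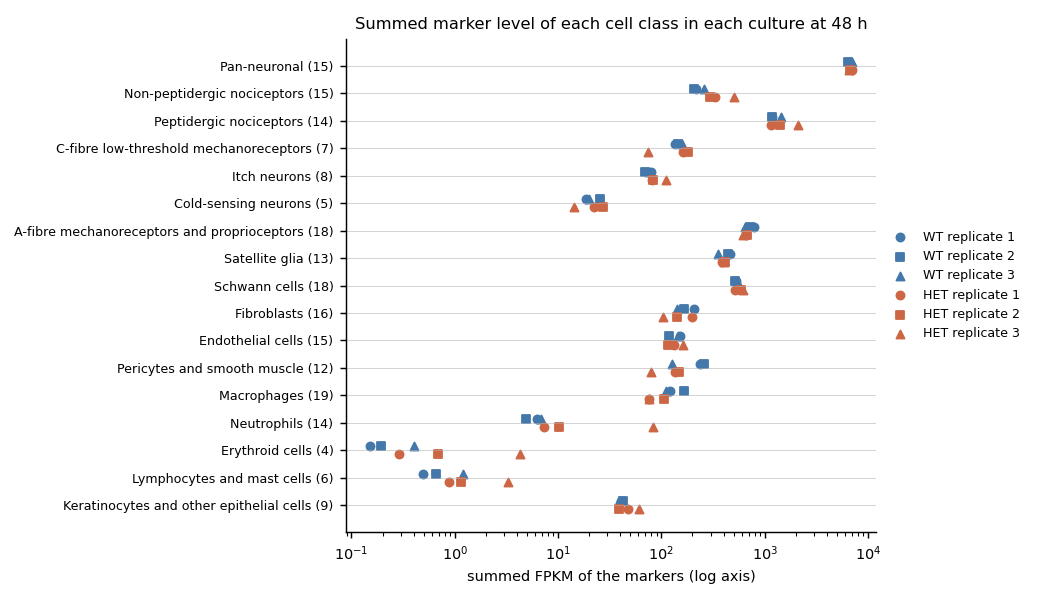
Summed FPKM (log axis) of the markers of each cell class in each of the 6 cultures at 48 h, with WT in blue, HET in orange, a marker shape for each replicate number and the number of markers in brackets. Pan-neuronal sums lie within 6439 to 7009, while the neutrophil sum of HET replicate 3 (83.5) is above the 4.91 to 10.1 of the other cultures.

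Few genes of the housekeeping machinery were called. Of 81 cytosolic ribosomal protein genes 0 were called, with 7 at an unadjusted p under 0.05 without the pairing and pair medians of -0.04, -0.01 and -0.30. Of 78 nuclear-encoded oxidative phosphorylation genes 0 were called, with 1 at an unadjusted p under 0.05 without the pairing. Rplp0, a protein of the large ribosomal subunit, was 17014, 18636 and 15048 in WT and 14684, 15114 and 10498 in HET and missed the threshold (limma adjusted p = 0.0564). Sdhc, a subunit of succinate dehydrogenase, was 2594, 2634 and 2585 in WT and 2550.3, 2454 and 1775 in HET (limma adjusted p = 0.198). Of 17 genes of mitochondrial transport and dynamics 0 were called, with 2 at an unadjusted p under 0.05 without the pairing. Of 39 proteasome genes, Psmb8 rose, and Psmd11 and Psmd8 fell (2.56% and 5.13%, beside 5.04% and 7.29% of all genes). Of these genes 0 were called when any 1 of the 3 replicates was left out. Of 21 importins and Ran genes, which carry injury signals with dynein, 3 fell and 0 rose (14.3% lower beside 7.29% of all genes). Kpnb1, importin beta 1, was 20500.5, 20896 and 18076 in WT and 17751, 17456 and 12555 in HET (log2 difference -0.33, limma adjusted p = 0.0158), and Xpo1 and Ranbp1 fell by 0.35 each. None of these 3 was called without replicate 3 (limma adjusted p = 0.124, 0.108 and 0.309). Of 28 interferon response genes, 4 rose and 0 fell (14.3% higher beside 5.04% of all genes). Among the 4 was Gbp2 (212, 125 and 288 in WT, 322, 305 and 743 in HET, limma adjusted p = 0.0144).

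Several of these counts were also smaller without replicate 2, the pair in which WT culture 2 had the highest Sprr1a, Ecel1 and Itga7. Without it, 2 of 18 immediate early genes, 1 of 19 regeneration transcription factors, 3 of 10 sodium channel genes and 2 of 20 TRP, acid-sensing and mechanosensory channels were called higher. The potassium channel count was 3 higher, the peptidergic marker counts 2 higher and 1 lower, and the neuropeptide counts 2 higher and 4 lower. Of the itch markers 0 were called, and of the fatty acid genes 1, beside 2 without replicate 1 and 2 without replicate 3. Guidance genes gave 1 higher and 1 lower, integrins and laminins 4 lower, and lysosomal genes 1 higher and 0 lower. Interferon response genes gave 0, and 1 without replicate 3. For all genes the fall was from 2120 to 372.

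Signals between cells and the matrix around them were called in both directions. Of 25 cytokines and chemokines of injury, 2 rose and 3 fell (8% and 12.0%, beside 5.04% and 7.29% of all genes), and 0 and 2 without replicate 3. Csf1, the growth factor that injured neurons send to macrophages, was 14876, 17064 and 10974 in WT and 9454, 7154 and 5021 in HET, a log2 difference of -1.01 (limma adjusted p = 0.00316, and 0.0302 without replicate 3). No HET culture reached the WT range. Il11, an interleukin 6 family cytokine, was 3157, 2636 and 1224 in WT and 1527, 865 and 327 in HET, with overlapping groups (log2 difference -1.52, limma adjusted p = 0.00254). Of 19 neurotrophic factor receptors, 2 rose and 3 fell (10.5% and 15.8%, beside 5.04% and 7.29% of all genes). Without replicate 3, 1 rose and 1 fell. Of 43 collagens, 2 rose and 6 fell (4.65% and 14.0%, beside 5.04% and 7.29% of all genes). Without replicate 3 the counts were 1 and 2, and without replicate 2 they were 1 and 3. The collagen of lowest p was Col5a2 at 35740.0, 44017 and 15138 in WT and 17046, 16671 and 5836 in HET (log2 difference -1.28, limma adjusted p = 0.00125). Of 33 Hox genes, 0 rose and 2 fell (6.06% lower beside 7.29% of all genes), and 0 were called without replicate 3. Glycolysis and hypoxia genes gave 2 higher and 1 lower of 26, autophagy genes 1 and 1 of 22, markers of lymphocytes and mast cells 2 and 0 of 6, and epithelial markers 1 and 2 of 9. Without replicate 3 those counts were 2 and 0, 0 and 1, 0 and 0, and 0 and 1. With all replicates the shares were 7.69% and 3.85%, 4.55% each, 33.3% and 0%, and 11.1% and 22.2%. Over all genes they were 5.04% and 7.29%.

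**Figure D5:**
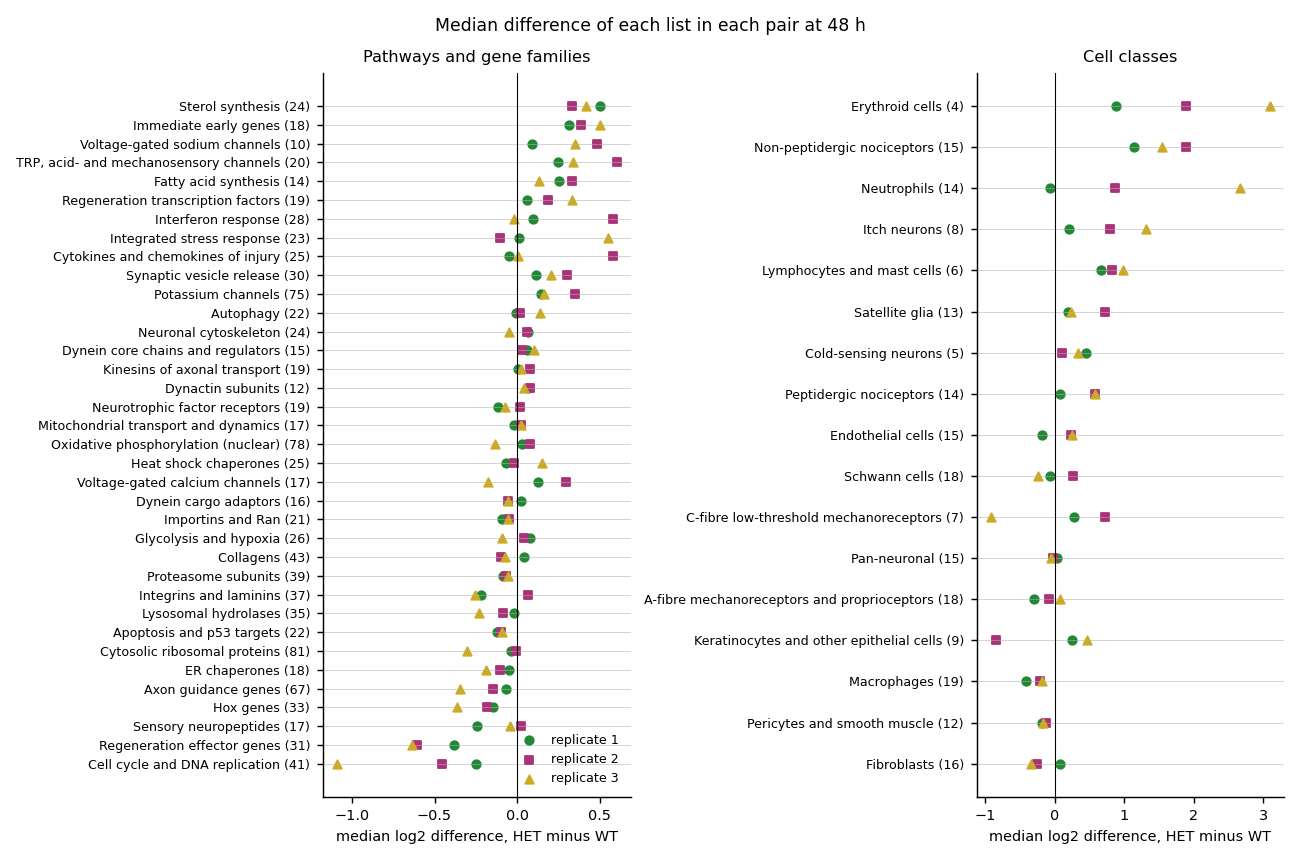
Median log2 difference (HET minus WT) of each list in each same-numbered pair of cultures at 48 h, with the number of genes measured in brackets and 1 marker per pair. The non-peptidergic nociceptor, sterol synthesis and regeneration effector medians keep 1 sign in all 3 pairs, while the cell cycle, neutrophil and erythroid medians are largest in size in replicate 3.

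The medians of 4 lists, picked after their values at 48 h were seen, are set beside the earlier times, where each list's median came from 3 pairs of cultures at that time and the same fit. Non-peptidergic nociceptor markers had a median log2 difference of 0.73 at 12 h and -0.18 at 24 h, beside 1.56 at 48 h. Regeneration effector genes had -0.07 and 0.05, beside -0.49. Sterol synthesis genes had 0.21 and 0.03, beside 0.43. Immediate early genes had -0.19 and -0.18, beside 0.39. Other lists had medians of larger size at 12 h than at 48 h, among them guidance genes (-0.30 beside -0.18), collagens (-0.34 beside -0.06), integrins and laminins (-0.23 beside -0.08) and dynein chains (0.12 beside 0.05). Differences of these medians between times were not tested. Dynlrb1 stayed near the same difference, with -0.78 at 12 h and -0.86 at 24 h. Over all genes, the difference at 48 h departed from the mean of that at 12 and 24 h for 786 of 17198 genes (limma adjusted p under 0.05). The number was 621 when the directions that had been removed from the deposited unlabelled columns were added as covariates.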

How the data were processed

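RNA-seq of 18 cultures was used as deposited; the 6 cultures at 48 h carry the comparison. Per the file headers, the authors deposited normalized counts, a signal without raw units (no whole number and no 0), unlabelled per-sample signal columns, FPKM values, and log2 fold changes with p-values of their own comparisons. The submitters' processing notes name mm10, CASAVA 1.8.2 and edgeR; the aligner and counter are not given in the sources used here. The unlabelled columns spanned 15 of 17 possible dimensions on a log2 scale, so 2 directions among samples had been removed from them. The normalized counts fitted here are other columns, in which this was not examined. Their residual degrees of freedom may be over-counted.

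Log2(normalized count + 1) of 17198 genes (mean of at least 1, which removed 0) was fitted with limma 3.58.1 in R 4.3.3: all 18 cultures, a block for each of 9 same-numbered pairs, 1 genotype effect per time, eBayes with trend (6 residual and 6.2 prior degrees of freedom) and Benjamini-Hochberg adjustment over all genes at 0.05. Log2 differences on this scale understate changes of low genes. The numbers from the titles were taken to pair the cultures. At 48 h, deviations of same-numbered WT and HET cultures from their group means correlated at 0.32, 0.21 and 0.46. Those of cultures with unlike numbers correlated at -0.47 to 0.18. Deviations within a group of 3 sum to 0, so these values depend on one another and cannot establish the pairing. Depth is unknown, and DESeq2 was not run because the values are not counts. Named genes were Dynlrb1, the 15 higher and 15 lower genes of largest difference among those called with a mean of at least 20, 1 direction in all pairs and no overlap, and up to 4 called members per list with the lowest p (2 where none was called); others are named in describing a whole list. Some genes that this rule names are not reported here. Members, 36 gene lists and 18 marker classes were chosen with earlier results of these data known. Coordinates are from GENCODE (GRCm38) and promoters from RefSeq (GRCm38.p6). Mitochondrially encoded genes were not analysed here.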

Additional observations from a re-analysis of the deposited data

Results flagged for a closer look

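The genotype difference at 48 h was set against the mean of the differences at 12 and 24 h for Dynlrb1 and the 30 genes of largest change, in the same limma fit with 9 pairs. It departed from the earlier times for 21 of them, beside 786 of all 17198 genes, with Benjamini-Hochberg adjustment over all genes and a threshold of 0.05. The 30 genes were chosen for their size at 48 h, which is 1 side of this contrast. A high count was therefore likely, and the values are a description. The log2 difference was more positive at 48 h, by the amount given, for Ms4a3 (2.71), Mrgprd (2.76), Slc16a12 (2.24), Wfdc2 (2.44), Hal (2.35), Nnat (2.18), Trpc6 (1.49), Pde4c (1.61), Ctxn3 (1.84) and Serpina11 (1.86). It was more negative at 48 h for Npy (-2.42), Oas1e (-2.87), Ankrd1 (-2.54), Ido2 (-1.86), Sprr1a (-2.68), Fezf2 (-2.36), 4933402N22Rik (-3.14), Adra2a (-2.19), 1700042G15Rik (-1.76), Gm19424 (-2.40) and Jsrp1 (-2.38). Trpc6, Npy, Ido2 and 1700042G15Rik missed the threshold when the 2 removed directions were added as covariates, a setting chosen after seeing the data (limma adjusted p = 0.0985, 0.0510, 0.0768 and 0.0772). For Dynlrb1 the departure was -0.02 (limma adjusted p = 0.943).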

How the results depend on the processing

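The count of 2120 genes depended most on the pairing and on single replicates. No replicate block gave 0 genes, the pairing left out; the paired fit without 1 replicate gave 372 (without replicate 2) to 1768, and the authors' deposited table had 1028, of which 989 were among the 2120. Leaving out 1 culture as well as the replicate block gave 0 without HET replicate 3, WT replicate 1 or WT replicate 2, 736 without HET replicate 1, 513 without HET replicate 2 and 931 without WT replicate 3. Counts under the other settings (only the 6 cultures, other columns or scaling, pseudocounts, filters, removed directions as covariates) stayed within 1.5 times, from 1723 to 2198. Dynlrb1 was lower in every setting, by -0.91 to -0.78 without 1 replicate in the paired fit. It missed the threshold without the replicate block (-0.84, limma adjusted p = 0.0501), and there without HET replicate 3 (-0.82, adjusted p = 0.222), WT replicate 1 (-0.85, adjusted p = 0.0890) or WT replicate 2 (-0.89, adjusted p = 0.189). None of the called genes among the 185 named changed sign in any setting. Xist, not called, went from 1.76 to -1.30 without replicate 3. The genes of largest change were chosen for 1 direction in all pairs and no overlap, so leaving out a pair or a culture could not reverse them. For the medians of the 36 gene lists and 18 marker classes, 9 changed sign without replicate 3. The count was 5 without replicate 2 and 4 without replicate 1. It was 15 without both the block and HET replicate 3, and 0 without the block alone. Of the 185, 81, 96 and 157 kept their side of the threshold without replicates 2, 3 and 1, and 11 without the block. The median log2 difference over all genes ran from -0.04 to 0.003 over the settings. The causes were not tested. Depth is unknown, so the spread between 3 cultures limits every value.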
